A study of Homo sapiens with 4 samples.

Results

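SNAIL1-HA peaks near the ends of the long chromosome arms were described in LS174T, an established cell line from a human colorectal cancer. A peak belonged to this set when its summit, the base with the most reads, lay in the last 5 Mb of hg19 chromosomes 1 to 22, a rule that used position and no measured level. Of the 823 peaks listed for the first induced library (induced 1) 155 qualified, and of the 1338 listed for the second (induced 2) 242 did. Peaks of the induced lists that overlapped by at least 1 bp were called shared. The qualifying peaks made up 265 sites, of which 133 were shared, 22 were in induced 1 only and 110 were in induced 2 only.

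All libraries came from pN1-LS174T Snail1-HA cells, in which doxycycline switches on murine SNAIL1 with a hemagglutinin (HA) tag, and an antibody to HA was used for every precipitation. Induced 1 and induced 2 came from cells kept in 0.1 mg/ml doxycycline for 6 h. Uninduced 1 and uninduced 2 came from the same line without the drug. The series' design text calls the 2 libraries of a condition biological replicates. The sources used here do not say whether they were separate cultures or whether the line is 1 clone, so the spread between them may be technical. The tagged protein is made in addition to whatever SNAIL1 the cells have themselves.

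SNAIL1 is a zinc-finger transcription factor that represses epithelial genes during epithelial-mesenchymal transition, the change by which epithelial cells lose their contacts and become mobile. Its zinc fingers recognise the E-box CAGGTG, which reads CACCTG on the other strand, and the gene for the junction protein E-cadherin is its classic target. The outer parts of human chromosome arms are on average rich in genes and in G and C bases.

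Each peak has 3 values. Fold enrichment is the authors' ratio of the reads over the summit to the local background. The pileup is the number of reads over the summit, recovered from the deposited values and given before any scaling for depth. The local background is given on the scale of the ChIP reads of the same library. Total read numbers were unknown. The lowest pileups in the induced lists were 28 and 17 reads. The genome-wide background of the induced 1 list was about 1.45 times that of the induced 2 list. This ratio of backgrounds is called the depth ratio below, and depth itself was not measured.

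Peaks near the long-arm ends were listed in induced libraries only, with 1 exception. The last 5 Mb held 155 peaks in induced 1 and 242 in induced 2, a mean of 198.5 ± 61.5 (SD, n = 2), against 1 peak in each uninduced list. The whole lists differed likewise, with 823 and 1338 peaks in the induced and 5 and 11 in the uninduced libraries. Both induced libraries lay far above both uninduced ones, and the groups did not overlap. The exact two-sided permutation test gave p = 0.333, the smallest that 2 libraries against 2 allow. The long-arm ends held 18.8% of the induced 1 list (95% exact interval 16.2 to 21.7) and 18.1% of the induced 2 list (16.1 to 20.3). The single uninduced peaks were 20% of 5 and 9.09% of 11, with intervals of 0.505 to 71.6 and 0.230 to 41.3. The windows make up 3.82% of the length of the 22 chromosomes.

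The exception was a site on chromosome 6, listed at 169313350 to 169313917 in induced 1. It had 10.2-fold enrichment and 99 reads in induced 1, and 8.73-fold enrichment and 63 reads in induced 2. In uninduced 1 the site had 9.06-fold enrichment and 56 reads (95% exact Poisson interval 42 to 73), and in uninduced 2 it had 5.28-fold enrichment and 76 reads (60 to 95). Before any scaling for depth, the pileups of the 2 conditions overlapped at this site, since uninduced 2 had more reads than induced 2. The genome-wide backgrounds of the lists were 6.00 and 4.15 reads in induced 1 and induced 2, and 5.27 and 6.04 in uninduced 1 and uninduced 2. The folds overlapped too, since that of uninduced 1 was above that of induced 2. The local background was 13.6 reads in uninduced 2 and 5.29 in uninduced 1. No other site of the set was listed in an uninduced library.

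Shared peaks were more dense at the long-arm ends than along the rest of the chromosomes. Of the 660 shared peaks on chromosomes 1 to 22, 133 (20.2%, 17.2 to 23.4) lay in the last 5 Mb. Spreading each chromosome's shared peaks evenly over its length would place 28.9 there, so the number was 4.61 times that expected (95% exact Poisson interval 3.86 to 5.46). The density was 1.21 shared peaks per Mb in the last 5 Mb and 0.190 elsewhere. Peaks are not independent of each other, so the interval covers counting error only and no test was made.

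The density was highest within 3 Mb of the end. Averaged over the 22 chromosomes, there were 1.86 shared peaks per Mb in the last 1 Mb, 1.64 between 1 and 2 Mb, 1.09 between 2 and 3 Mb and 0.455 between 3 and 4 Mb from the end. Between 5 and 10 Mb the mean was 0.291 per Mb, and between 10 and 20 Mb it was 0.259. The last 3 Mb held 101 of the 133 shared peaks (75.9%). Its bins of 1 Mb, from the end inwards, had shared peaks on 14, 12 and 11 of the 22 chromosomes. Chromosome 9 alone held 11 of the 36 shared peaks between 1 and 2 Mb. The libraries had the same shape, with 1.80 and 2.91 peaks per Mb in the last 3 Mb for induced 1 and induced 2, against 0.409 and 0.636 between 5 and 10 Mb.

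**Figure D1:**
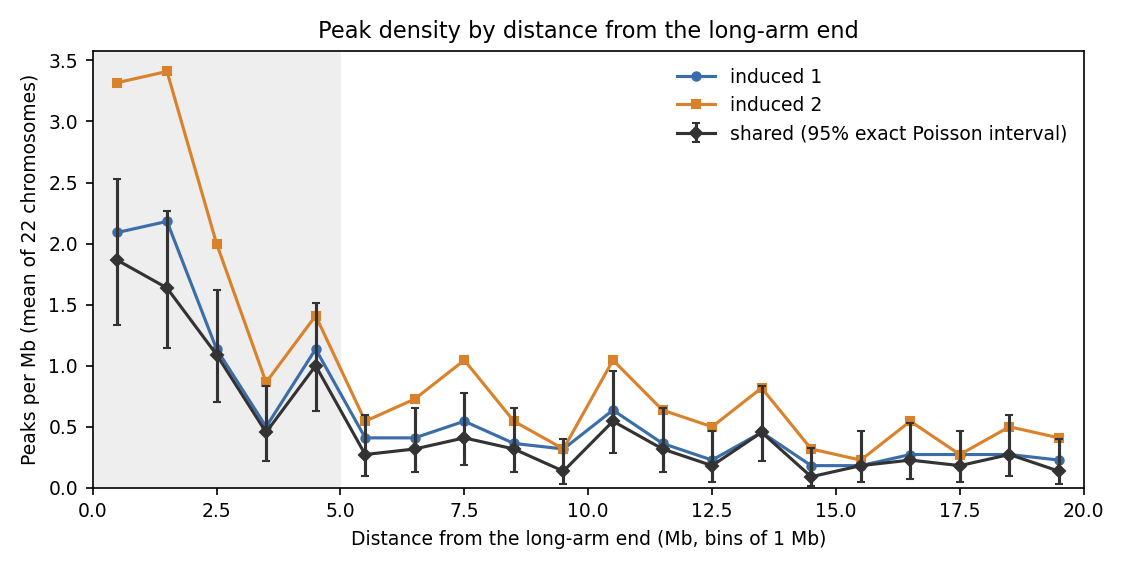
Peaks per Mb (mean of 22 chromosomes) against distance from the long-arm end in bins of 1 Mb, for induced 1, induced 2 and their shared peaks; bars on the shared line are 95% exact Poisson intervals and the grey area marks the last 5 Mb. Shared peaks number 1.86 per Mb in the last 1 Mb and 0.273 between 5 and 6 Mb.

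A smaller rise stood between 4 and 5 Mb from the end, with 1 shared peak per Mb. The 22 shared peaks in that bin lay on 12 chromosomes, of which chromosome 16 held 5, chromosome 22 held 4 and chromosome 11 held 3. On chromosome 16 these 5 began at 85380238 and ended at 85647016, and no shared peak lay in the 2.12 Mb that followed. Chromosome 22 had a gap of 2.78 Mb between its outer and inner groups. The 3 peaks of chromosome 11 lay from 130016275 to 130051573, all within 0.05 Mb of the limit of the window, and that chromosome had no shared peak nearer its end.

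The chromosomes differed widely. Chromosome 9 had the most members, with 24 peaks in induced 1, 33 in induced 2 and 19 shared. Chromosome 17 had 18, 23 and 16, chromosome 8 had 15, 26 and 14, and chromosome 16 had 13, 24 and 13, in the same order. These 4 chromosomes together held 62 of the 133 shared peaks (46.6%). Relative to length, chromosomes 8 (16.4 times expected), 13 (12.8 times, 5 peaks), 9 (12.5 times) and 14 (10.7 times, 8 peaks) were highest. Full lengths were used, also for chromosomes 13 and 14, in which the short arm is mostly repeats. In chromosome 8, 56.0% of all shared peaks of the chromosome lay in the last 3.42% of its length.

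Long-arm ends without a shared peak were few. The last 5 Mb of chromosomes 1, 4 and 15 held no peak of induced 1, and 1, 3 and 2 peaks of induced 2 in turn, none of them shared. Chromosome 19, which has many genes, had 2 shared peaks there where 4.23 were expected. The other 18 chromosomes had more shared peaks than expected, each by at least 2 times.

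**Figure D2:**
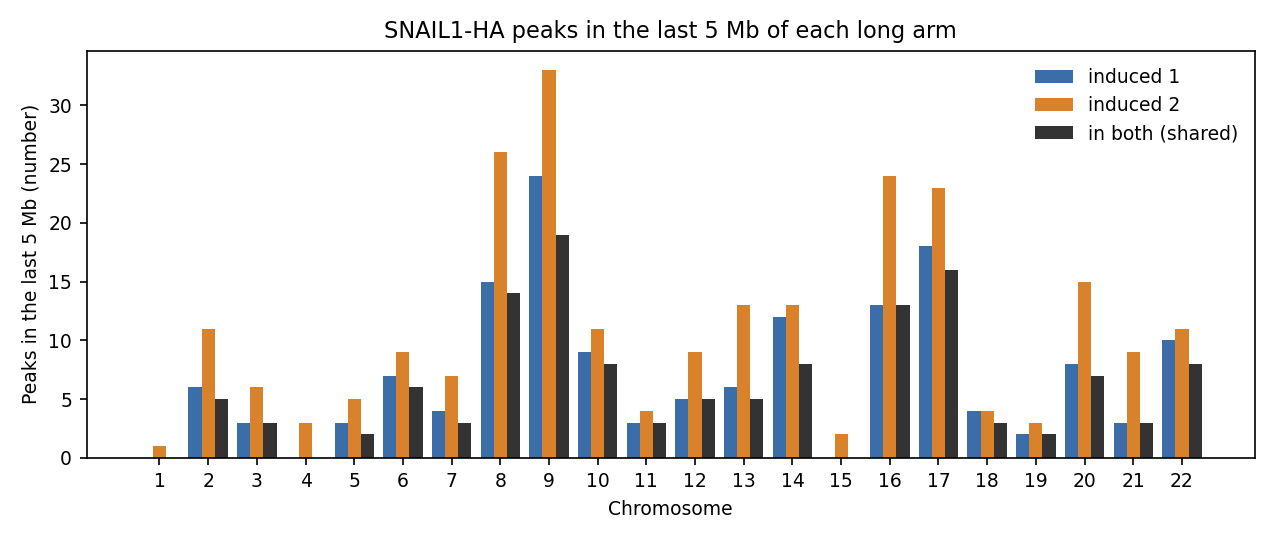
Number of peaks in the last 5 Mb of each of 22 chromosomes in induced 1, in induced 2 and in both lists. Chromosomes 9, 17, 8 and 16 have the most shared peaks (19, 16, 14 and 13), and chromosomes 1, 4 and 15 have none.

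The arms of a chromosome were not alike. Leaving out chromosomes 13, 14, 15, 21 and 22, in which the short arm is mostly repeats, the last 5 Mb held 109 shared peaks (4.42 times expected) and the first 5 Mb 105 (4.26 times) on the remaining 17 chromosomes. The long-arm end had more on 10 chromosomes and the short-arm end on 7. Chromosomes 1, 4, 11 and 19 together had 65 shared peaks in the first 5 Mb and 5 in the last. Chromosome 9 had 19 at the long-arm end and none at the other, and chromosome 8 had 14 and 1. Chromosome 16 was high at both, with 13 and 16. The ends of both arms together held 238 of the 660 shared peaks (36.1%).

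**Figure D3:**
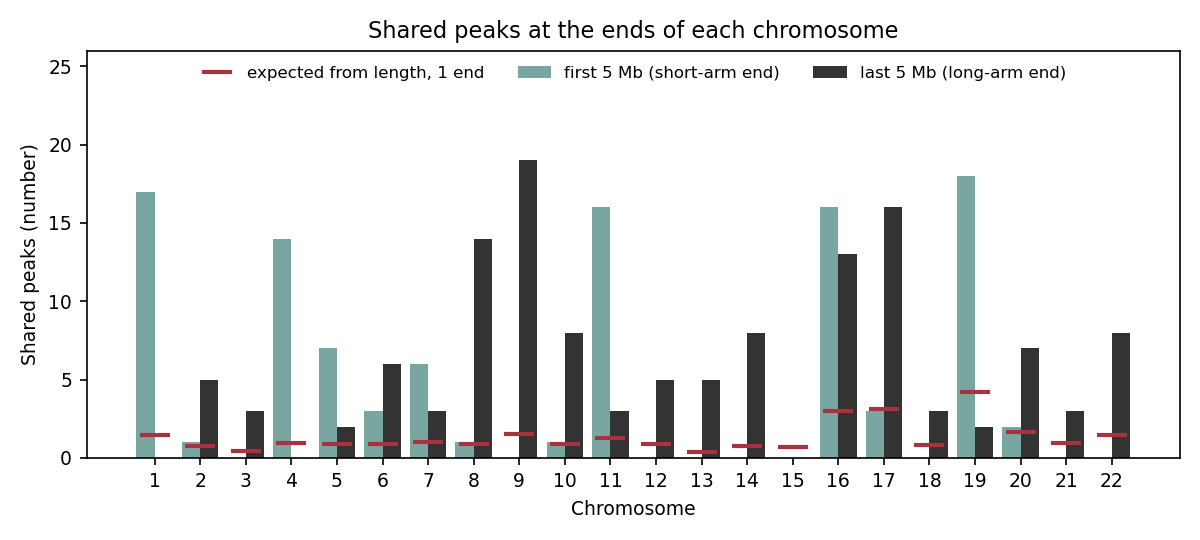
Shared peaks in the first and in the last 5 Mb of each chromosome, with the number expected in 5 Mb from the chromosome's length as a red dash. Chromosomes 8, 9 and 17 have theirs mainly at the long-arm end (14, 19 and 16) and chromosomes 1, 4, 11 and 19 at the short-arm end (17, 14, 16 and 18).

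Of each induced list, a slightly larger share of members than of other peaks was shared. In induced 1, 133 of 155 members (85.8%, 79.3 to 90.9) were shared, against 80.3% of the whole list and 79.0% of all other peaks (75.8 to 82.1). In induced 2, 132 of 242 (54.5%, 48.0 to 60.9) were shared, against 49.3% of the whole list and 48.2% of the others (45.2 to 51.2). Among these other peaks, those in the first 5 Mb were shared at 81.4% (105 of 129) in induced 1 and 55.8% (106 of 190) in induced 2. In induced 2 this was above the share of members, so the larger share there was not particular to long-arm ends. Members in the last 2 Mb were shared at 81.9% (77 of 94) in induced 1 and 51.4% (76 of 148) in induced 2. These differences were not tested. One wide peak of induced 2 on chromosome 9 met 2 peaks of induced 1, which is why the shared numbers differ by 1. With each list divided by fold into 4 groups of about equal size, all 33 members in the strongest group of induced 1 were shared, against 98.8% of 173 other peaks. In the strongest group of induced 2, 60 of 62 members (96.8%) and 236 of 273 others (86.4%) were. In the weakest groups these were 28 of 39 members (71.8%) and 64.1% of 167 others in induced 1, and 17 of 61 (27.9%) and 72 of 274 (26.3%) in induced 2.

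Median enrichment of the members lay close to that of the other shared peaks. Median fold was 5.59 in induced 1 and 6.07 in induced 2 for the 133 members, against 5.75 and 5.95 for the 528 other shared peaks. Median pileups were 54 and 45 reads, against 55 and 45, over median backgrounds of 8.40 and 6.33 reads, against 8.40 and 6.43. The strongest sites were less frequent here, with 5 of 133 members (3.76%) at 10-fold or more in both lists and 37 of 528 (7.01%) elsewhere, a difference that was not tested. The highest folds were 13.7 in induced 1 and 15.7 in induced 2, where the other shared peaks reached 20.4 and 25.3. Members were somewhat wider, with medians of 374 and 419 bp against 351 and 383 bp. Over all listed peaks, shared or not, median widths were 365 and 357 bp for members and 328.5 and 335 bp for all others. Peaks in the first 5 Mb were of similar width to members, at 359 and 373 bp.

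**Figure D4:**
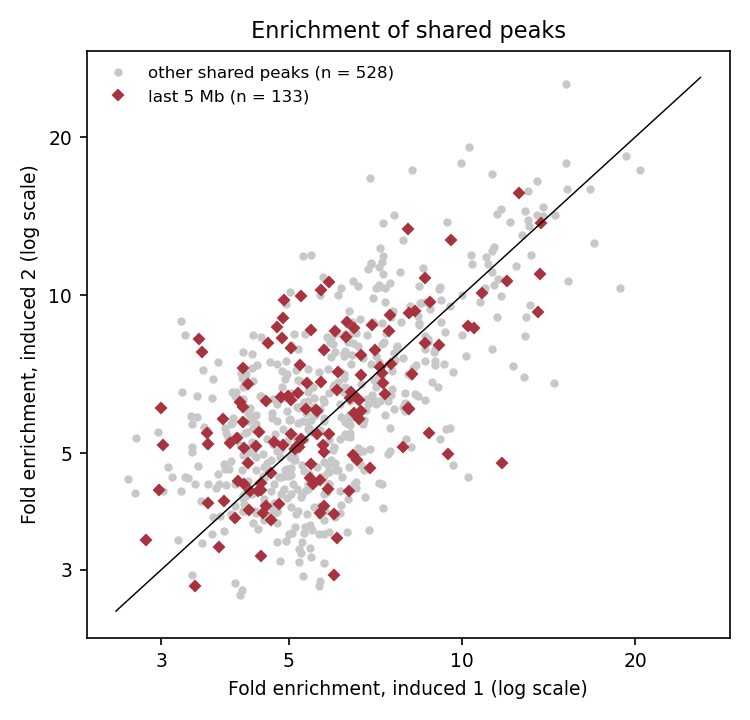
Fold enrichment in induced 2 against induced 1, both on log scales, for the 133 shared peaks of the last 5 Mb and the 528 other shared peaks; the line marks equal folds. Members span 2.83 to 13.7 in induced 1 and 2.79 to 15.7 in induced 2, inside the range of the other peaks.

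Whether a difference in read number between the replicates was called at a shared member depended on the scaling. Members listed in 1 induced library only have no pileup in the other, so they were not tested. At the 133 shared members, pileups summed to 7916 reads in induced 1 and 6505 in induced 2. Their ratio was 1.22, against 1.23 at the other shared peaks. An exact binomial test of each pair of pileups against the overall ratio, with Benjamini-Hochberg adjustment over all 661 shared peaks, called none of the 133 members and 0% of all shared peaks. With the depth ratio of 1.45 from the backgrounds in its place, 3 of the 133 members were called, all higher in induced 2. Of all 661 shared peaks 5 were called (0.756%). Against the overall ratio, unadjusted p was under 0.05 at 5 members, 3 of them higher in induced 2. The smallest adjusted p was 0.344, at the peak of induced 1 on chromosome 9 from 139940310 to 139940661, which had 41 reads there and 62 in induced 2. That pair belongs to the wide peak of induced 2, whose summit lay 614 bp away, so different bases were compared. The same pair was 1 of the 3 called with the depth ratio. Across the 133 members Spearman's rho of fold between the libraries was 0.507, against 0.604 across the 528 others, as a description of these 2 libraries.

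At some members the folds of the replicates differed over local backgrounds that differed too. The folds differed by 1.5 times or more at 28 of the 133 members (21.1%), about the same share as at the other shared peaks (111 of 528). Among the 28 members, 20 were higher in induced 2, and 3 had an unadjusted p under 0.05 for the pileups. On chromosome 2 the peak at 242512155 to 242512606 had 62 and 52 reads but folds of 3.48 and 8.25, over local backgrounds of 16.8 and 5.42 reads. On chromosome 11 the peak at 130029379 to 130029812 had 86 and 74 reads with folds of 5.68 and 10.2, over backgrounds of 14 and 6.33. On chromosome 16 the peak at 88567374 to 88568166 had 129 reads in induced 2 and more in induced 1 (interval 119 to 166), among the highest of the set, but folds of only 2.83 and 3.41, since the local background was 49.0 and 37.1 reads. High fold and many reads therefore did not always mark the same sites.

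The site highest in mean percentile of fold was on chromosome 16, 0.436 Mb from the end, at 89913888 to 89914359. Its summits lay 2 bp apart, with 133 reads (111 to 158) in induced 1 and 109 (90 to 131) in induced 2, and folds of 13.7 in each. The second, on chromosome 18 from 74844087 to 74844579, had 104 and 93 reads and folds of 12.5 and 15.7. The other members of chromosome 18 were lower, with 53 and 46 reads at 74104392 and 42 and 33 reads at 77748226. Neither of these strong sites was listed in an uninduced library.

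Chromosome 17 had a site of similar strength 0.191 Mb from its end, at 81008495 to 81009345. It was wide, 851 bp in induced 1 and 864 bp in induced 2, with 123 and 109 reads and folds of 13.7 and 11. At 80399047 to 80399555 the same chromosome had 126 and 109 reads, with folds of 13.5 and 9.28. Another site of that arm among the 15 highest, at 78465887 to 78466483, had fewer reads, 60 and 59, over low backgrounds of 6.00 and 5.42, which gave 8.30-fold and 9.34-fold. The remaining members of chromosome 17 reached down to 3.43-fold and 2.79-fold, so sites of very different strength lay in one arm end.

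Chromosome 6 supplied 2 of the 15 sites highest in mean percentile. One was the site also listed in uninduced cells. The other, at 168462345 to 168462817, had 116 and 106 reads with 12.0-fold and 10.7-fold enrichment and was not listed in uninduced cells. Only 4 other members of this arm were shared, and they had 29 to 78 reads in induced 1.

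Chromosome 8 held 3 of the 15 sites. The peak at 143423943 to 143424566 had 89 and 104 reads and folds of 9.57 and 12.8. A neighbour at 143420940 to 143421331 had 60 and 59 reads. The peak at 144487334 to 144487692 had 83 and 73 reads and folds of 8.61 and 10.8, and the peak at 143183299 to 143183879 had 66 and 46 reads and folds of 9.11 and 8.02. Among the 133 shared members the replicates differed most in fold at 143820837 to 143821262, with 88 and 47 reads and folds of 11.7 and 4.78. Its pileup difference was not called (adjusted p = 1, exact binomial test with Benjamini-Hochberg adjustment).

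On chromosome 9 many sites of middling strength lay close together. Its median folds were 5.44 and 6.28, and 15 of its 19 shared peaks lay within 2 Mb of the end. The window from 140000001 to 141000000 held 8 shared peaks, and the window from 139000001 to 140000000 held 7. The site highest in mean percentile of fold was at 138624903 to 138625546, with 79 and 50 reads and folds of 10.5 and 8.67. The most reads were at 139844314 to 139844861, with 145 and 127, where folds were 6.97 and 8.79 over backgrounds of 19.6 and 13.6. The peak at 140388839 to 140389519 had 112 and 92 reads and folds of 8.10 and 9.26, the second the highest of this arm end in induced 2.

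**Figure D5:**
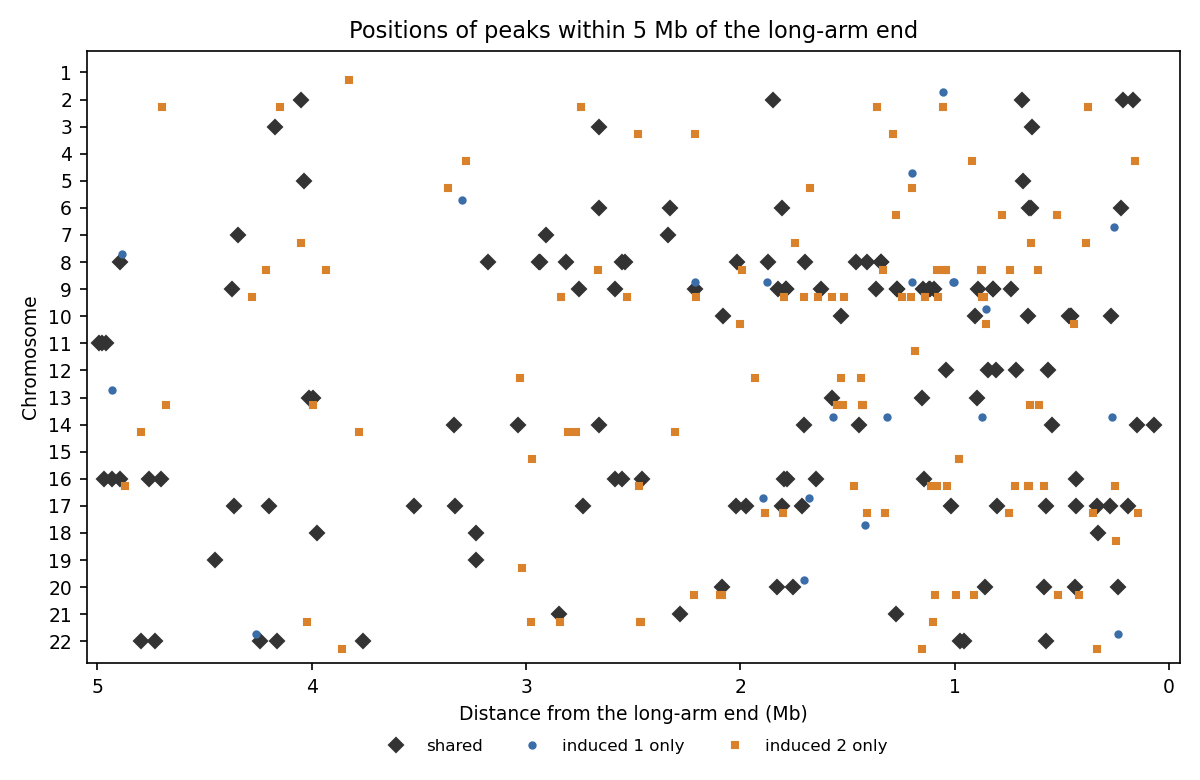
Position of each member, as distance in Mb from the long-arm end, on chromosomes 1 to 22; diamonds are shared peaks, and smaller points above and below a row are peaks in induced 1 only and in induced 2 only. Chromosome 9 has 15 shared peaks within 2 Mb of the end, and chromosome 11 has 3, all next to the limit at 5 Mb.

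The remaining 3 of the 15 sites were on chromosomes 21, 14 and 20. The chromosome 21 peak at 46853723 to 46854185 had 83 and 82 reads with folds of 10.8 and 10.1. On chromosome 14 the peak at 105647522 to 105647974 had 100 and 91 reads, and its folds of 8.05 and 13.4 stood over backgrounds of 11.2 and 5.88. The chromosome 20 peak at 62170106 to 62170522 had 97 and 79 reads with folds of 8.79 and 9.72.

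On the other chromosomes with shared members the site highest in mean percentile of fold ranked below these 15, and it was not always the highest in each list. It had folds of 7.46 and 8.56 on chromosome 10 (133999127 to 133999500), 7.52 and 7.41 on chromosome 13 (111177863 to 111178469), and 7.27 and 6.80 on chromosome 22 (46567296 to 46567697). This site had 5.46-fold and 8.60-fold enrichment on chromosome 3 (197381547 to 197381939), and 4.86-fold and 8.29-fold on chromosome 19 (54676715 to 54677070). On chromosome 7 it had 4.77-fold and 8.71-fold (156803277 to 156803609), where another site had 6.00-fold in induced 1. The lowest in mean percentile were on chromosome 2, with 5.46-fold and 4.76-fold at 241350267 to 241350802, and on chromosome 5, with 5.13-fold and 5.10-fold at 180237283 to 180237594. On chromosome 12 it had 7.91-fold and 5.14-fold at 133287148 to 133287514, where another site had 7.78-fold in induced 2. On chromosome 11 it was the peak at 130029379, given above.

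Some members formed short runs. With summits at most 20 kb apart counted together, there were 12 runs with 25 of the 133 shared members (18.8%). Runs among the 528 other shared peaks are not given here, so runs are not shown to be particular to long-arm ends. Close shared peaks also lay elsewhere, as at 132.78 Mb from the long-arm end of chromosome 11. Only 1 held 3 peaks, on chromosome 10 from 135060844 to 135074309, where induced 1 had 5.65-fold to 8.05-fold and induced 2 had 3.84-fold to 6.11-fold enrichment. Chromosome 9 had 4 runs of 2, and chromosome 8 had 3. One run of chromosome 9, from 139940310 to 139941250, was a run in induced 1 only, since induced 2 had a single wide peak there. Another, from 139421110 to 139422424, held a peak of 58 and 48 reads and a peak of 36 and 43 reads. The first had 6.06-fold and 6.60-fold enrichment and the second 4.06-fold and 5.34-fold.

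The member nearest to an end was on chromosome 14, 0.0691 Mb from it, at 107280777 to 107281048. It had 45 and 38 reads with 5.84-fold and 4.27-fold enrichment. The next, also on chromosome 14, was at 107198726 to 107199009, 0.151 Mb from the end, with 42 and 27 reads and 5.86-fold and 5.44-fold enrichment. The third was on chromosome 2 at 243030787 to 243031084, 0.169 Mb from the end, with 39 and 32 reads. The folds of all 3 lay between 4.01 and 5.86. The immunoglobulin heavy-chain genes, which B cells rearrange to make antibodies, fill the end of chromosome 14: in RefSeq's GRCh38 gene table, 89 of the last 100 entries of that chromosome carry their IGH prefix, and the last is IGHVIII-82.

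At the limit of the window the values were of the same kind on both sides. The 2 shared peaks just inside were on chromosome 11, at 130029379 and at 130016275, where the second had 52 and 30 reads with 6.36-fold and 4.23-fold enrichment. Just outside, chromosome 17 had a peak at 76164594 to 76164958, 5.04 Mb from the end, with 42 and 39 reads and 5.28-fold and 4.17-fold enrichment. The next, on chromosome 4 at 186064192 to 186064455, had 45 and 32 reads and 4.14-fold and 4.65-fold enrichment.

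Members listed in 1 induced library only had lower medians than shared members, and peaks outside the set differed likewise. In induced 1 the 22 such members had a median of 40.5 reads and 4.5-fold enrichment, against 54 reads and 5.59-fold for the shared ones. The 140 unshared peaks of induced 1 outside the set had medians of 39 reads and 4.53-fold. The strongest lay on chromosome 7 (158880921 to 158881323), with 52 reads and 6.36-fold enrichment. Chromosome 9 followed with 50 reads and 5.63-fold (139334253 to 139334603), then chromosome 14 with 41 reads and 5.58-fold (105781405 to 105781748). In induced 2 the 110 such members had medians of 29.5 reads and 4.36-fold, against 45 reads and 6.06-fold for the 132 shared ones. The 568 unshared peaks of induced 2 outside the set had medians of 30 reads and 4.42-fold. Chromosome 19 had the strongest (56111896 to 56112366), with 44 reads and 6.57-fold enrichment. Next came chromosome 17 with 41 reads and 6.29-fold (79790661 to 79790991) and chromosome 16 with 45 reads and 6.28-fold (89268219 to 89268614). A peak missing from a list is not shown to be absent from that library.

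The reference used here was in GRCh38 and not in the hg19 build of the peaks, so no peak was assigned to a gene and no sequence under a peak was read. Genes near long-arm ends were instead described by their order in RefSeq's GRCh38 table. A list of 48 such genes was matched by symbol, and all 48 were found, on 17 chromosomes. Its groups were epithelial adhesion, junction, polarity and matrix, the Notch pathway, EMT and Wnt regulators, and intestinal epithelium and mucus. NOTCH1, the receptor of the Notch pathway, has 62 protein-coding genes between it and the end of chromosome 9, and ST14, which encodes the epithelial protease matriptase, has 16 on chromosome 11. LAMA5, which encodes a laminin chain of the epithelial basement membrane, has 54 on chromosome 20, and JAG2, a Notch ligand, has 10 on chromosome 14.

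The E-box that SNAIL1 recognises occurred in a minority of promoters near these ends. Searching the 250 bases upstream of RefSeq starts for CAGGTG or CACCTG, which covers both strands, found it in 226 of 1050 promoters (21.5%, 19.1 to 24.1) when the last 50 of each chromosome were taken. Among all 33725 promoters of the same 21 chromosomes it was in 5922 (17.6%, 17.2 to 18). The promoters near the ends were also richer in G and C, with a median of 65.6% against 58.4%, and the part of base composition in the difference was not tested. Any E-box, CANNTG, was in 59.5% of the promoters near the ends and in 61.8% of all, so the order was the opposite for this wider motif. Of the 48 listed genes, 28 had promoters in the table, 46 in all, and 10 of these 46 held the E-box (21.7%, 10.9 to 36.4). They belonged to 9 genes, among them LAMA5, JAG2 and EPS8L1, an actin-regulating adaptor. The listed genes were chosen by name and not by this order, and EPS8L1 has 132 protein-coding genes between it and the end of chromosome 19.

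Stretches of the LAMA5, JAG2 and EPS8L1 promoters are shown as examples of the E-box near long-arm ends. Each holds it in the orientation CAGGTG, 30 bases from either side, and so do stretches of AKT1 and SHH promoters, which are not shown. They are from RefSeq, build GRCh38.p14, written 5′ to 3′ on the strand of the gene, with the E-box in capitals. LAMA5 is at chr20:62367478-62367543 on the minus strand, JAG2 at chr14:105168777-105168842 on the minus strand and EPS8L1 at chr19:55075763-55075828 on the plus strand. The E-box begins 201, 36 and 76 bases upstream of the start in turn.
LAMA5: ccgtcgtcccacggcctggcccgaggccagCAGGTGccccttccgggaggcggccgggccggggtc
JAG2: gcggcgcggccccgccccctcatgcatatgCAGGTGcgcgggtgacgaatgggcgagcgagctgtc
EPS8L1: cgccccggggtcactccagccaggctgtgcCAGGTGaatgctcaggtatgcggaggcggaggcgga
A match is a description of the letters and does not show that SNAIL1 bound there.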

How the data were processed

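Peaks of anti-HA ChIP-seq (single reads of 50 bp, per the labels' protocols) were analysed in 2 induced and 2 uninduced libraries. Build hg19, MACS2 2.1.1.20160309, BWA 0.7.15 and Trimmomatic 0.36 are listed in the submitters' processing notes. The authors deposited 1 narrowPeak list per library. Its columns, per the deposited values, hold a fold enrichment (ratio), the −log10 p and −log10 q, a score of 10 times the −log10 q, and peak positions. The sources used here give neither read numbers nor the peak threshold.

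Pileups were solved from fold and p, with the MACS2 pseudocount of 1, to within 0.0005 of the listed −log10 p at every peak of the 4 lists (823, 1338, 5 and 11). In induced 1 pileups had been scaled down by 1.40. Recovery and the binomial test were tested on simulated data. Planned annotation of peaks and search for E-boxes under them needed hg19 and were not run; RefSeq promoters (GRCh38.p14), without those of chromosome 8, were described instead. Alternatives left out a library or chromosomes and changed the window, the fold or q minimum, the overlap and the depth ratio. Chromosome lengths were rounded to 0.01 Mb. The groups came from the titles. Python 3.11.15 and scipy 1.17.1 were used, and the 661 overlaps were checked in bedtools 2.31.1. Intervals are exact (Clopper-Pearson or Poisson), cover counting error only, and are at 95%. The binomial test was fitted across all shared peaks.

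Named peaks were the 15 shared members highest in mean percentile of fold, the strongest of each chromosome, uninduced members, the 3 strongest of each induced list alone, runs of 3, the 3 nearest an end and the 2 on each side of the limit. Other named peaks, and IGHVIII-82, were chosen after their values were seen. The members and gene lists were chosen with earlier results of these data known.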

Additional observations from a re-analysis of the deposited data

How the results depend on the processing

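The difference in mean number of members, 197.5, was 104.5 at a fold of at least 5, 178 at a −log10 q of at least 5, 120 in the last 2 Mb and 254 in the last 10 Mb, and ranged from 154 to 241 with 1 library left out. Under a replicate block it was 197.5 (exact sign-flip p = 0.5), and whether the numbers pair the libraries could not be checked from peak lists. The 133 shared members became 69 when both lists had to reach 5-fold and 77 in the last 2 Mb. The ratio to length, 4.61, became 6.67 for the last 2 Mb, 2.86 for the last 10 Mb, 5.65 without chromosomes 16, 17, 19, 20 and 22 and, chosen after seeing the data, 3.77 without chromosomes 8 and 9. It was 4.21 to 4.31 in single lists. With the depth ratio of 1.45 in place of 1.23, the binomial test called 3 members, all higher in induced 2, and 5 of all 661 shared peaks. At 1 of the 3, on chromosome 9, the summits lay 614 bp apart. The mean of the median folds, 5.83, ranged from 5.59 to 6.07 with 1 library left out. Any E-box (CANNTG), also chosen after seeing the data, was in 59.5% of the promoters near long-arm ends, below the 61.8% of all promoters. Of the 35 alternatives run, CANNTG turned around the order between promoters near the ends and all promoters. No other result reversed. The planned annotation of peaks, E-boxes under peaks and expectation from gene starts were not run, since no hg19 sequence or annotation was used. The lowest pileups, 28 and 17 reads, limit which peaks could be listed.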
